A study of Mus musculus with 36 samples.

Results

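The signals of 6 chemokine genes, Cxcl1, Cxcl5, Cxcl12, Ccl2, Ccl5 and Ccl7, were followed across 36 mouse stem cell arrays. The genes were picked because their signals had been seen to lie below those of R1 embryonic stem (ES) cells in the other samples, so every comparison with R1 below is a description without a test, and so is every comparison with D3, which reuses the same values. Probes were taken by gene symbol from the annotation of the bead array, which gave 8 probes for the 6 genes. Of these, 2 probes for Cxcl12 held placeholder values on all arrays (-4.7 to 14.4 and -4.8 to 14.2 intensity units, a narrow band around 0 shared by all probes without a measurement) and were left out. The remaining Cxcl12 probe ran from 60 to 558.9 intensity units. Each of the 6 genes kept 1 probe, and these are 6 of 10533 features tested.

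The samples were induced pluripotent stem (iPS) cell clones made from MEFs (mouse embryonic fibroblasts) by overexpressing sets of transcription factors, and ES cell lines. The OSE set received Oct4, Sox2 and Esrrb (8 clones), the OSKT set Tbx3 with Oct4, Sox2 and Klf4 (11 clones), and the OSK set the last 3 of these alone (11 clones). Oct4 and Sox2 are thus common to all iPS clones, and OSKT differs from OSK by added Tbx3, the factor in the title of the study. The ES lines were D3, labelled as grown on MEFmedium (2 replicates), and R1, labelled as grown on mESC medium (4 replicates), so the line and the medium cannot be told apart between them. The medium of the iPS clones, the strain and the sex are not given in the labels used here, and those labels name no feeder cells. Each iPS sample is 1 clone, and P-values measure only the spread between these samples.

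Chemokines are small secreted proteins that attract cells through G protein-coupled receptors. In the CXC group, Cxcl1 and Cxcl5 attract neutrophils through Cxcr2, while Cxcl12 signals through Cxcr4, guides migrating germ cells and blood stem cells, and is bound by the scavenger receptor Ackr3. In the CC group, Ccl2 and Ccl7 attract monocytes through Ccr2, and Ccl5 attracts T cells and other leukocytes. Cxcl1, Cxcl5, Ccl2, Ccl5 and Ccl7 are inducible genes, switched on by NF-kB signalling and, for several of them, by interferons. Fibroblasts, including the embryonic fibroblasts used to make or feed stem cells, are a known source of Cxcl12, Ccl2 and Ccl7.

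The promoters of Cxcl1 and Cxcl12 are shown because the RefSeq promoter table used here (GRCm38.p6) held these 2 of the 6 genes, with the 250 bases before the start site at chr5:90890995-90891244 for Cxcl1 and at chr6:117168285-117168534 for Cxcl12, both on the plus strand. Capitals mark matches to the NF-kB motif, GGGA and TTCC with any 2 bases between them, searched on both strands.
Cxcl1: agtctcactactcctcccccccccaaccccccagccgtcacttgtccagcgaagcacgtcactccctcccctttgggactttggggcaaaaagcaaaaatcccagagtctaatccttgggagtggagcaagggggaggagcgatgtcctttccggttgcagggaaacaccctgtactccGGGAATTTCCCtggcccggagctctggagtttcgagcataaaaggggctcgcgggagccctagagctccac
Cxcl12: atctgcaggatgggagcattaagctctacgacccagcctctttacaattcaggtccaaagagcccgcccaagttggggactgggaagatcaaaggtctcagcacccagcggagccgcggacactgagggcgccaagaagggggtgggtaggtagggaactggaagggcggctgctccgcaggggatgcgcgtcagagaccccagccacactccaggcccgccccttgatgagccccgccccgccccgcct
The Cxcl1 window held 2 overlapping matches, starting at -71 and -70, 1 on each strand, and the Cxcl12 window held 0. Over all 32851 promoters of that length, 397 (1.21%) held the motif. The letters TATAAA on either strand were in neither window and in 12.4% of all promoters. The Cxcl12 window had 64.4% G or C and 14 CpG, and the Cxcl1 window 59.2% and 10, against medians of 52.4% and 6 over all promoters. These matches describe the letters and not binding.

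On chromosome 5 the annotation places Ppbp, Pf4, Cxcl3 and Cxcl15 between Cxcl5 and Cxcl1. On chromosome 11, Ccl2 and Ccl7 are direct neighbours, with 29 protein-coding genes between Ccl7 and Ccl5.

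Between 8675 and 9720 of 18720 measured probes stood above background on each array (detection limits of 45.2 to 90.8 intensity units), and signals were normalized and put on the log2 scale, on which 1 unit is a doubling. The number of arrays limits the precision. Several iPS clones differed from each other no more than R1 replicates did. The 8 OSE, 11 OSKT and 11 OSK clones thus form 5, 6 and 6 clusters, some of near-identical arrays and some of single arrays. Arrays were joined stepwise, so not every pair within a cluster need be near-identical. OSK clones 1 to 4 form a single cluster. All 11 measured markers of pluripotent cells were above background on every array. Against R1, limma called 2 of them higher and 7 lower in OSE (median log2 difference -0.98), 2 and 5 in OSKT (-0.22), and 2 and 6 in OSK (-0.50). Among all features, 28.7% were called higher and 29.9% lower in OSE, 26.4% and 27.9% in OSKT, and 25.8% and 28% in OSK. The pluripotent list holds Klf4 and Esrrb, which were themselves overexpressed in some sets. Whether their probes also read the introduced copies was not tested. Of 12 measured markers of macrophages and leukocytes, 9 to 11 were below background on every array of a group, among them Ptprc, Adgre1, Itgam, Tyrobp and Aif1. The list's summed signal was highest in R1 (18145 to 19608 intensity units, against 1726 to 8741 in the iPS clones) and came mostly from Laptm5, a lysosomal protein (mean log2 11.11 in OSE, 12.70 in OSKT, 12.58 in OSK, 13.63 in D3 and 14.14 in R1).

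Cxcl1, the neutrophil attractant also called KC, had with background correction the largest gap between the iPS sets and R1 among the genes detected in both. Its normalized log2 signal was 7.30, 7.48 and 7.84 (lowest, median, highest) in OSE, 7.08, 7.40 and 7.58 in OSKT, and 6.61, 6.96 and 7.40 in OSK. D3 had 9.22 and 9.22, and R1 had 11.06, 11.02, 11.13 and 11.03. The ES lines did not overlap each other or any iPS clone, and D3 lay between R1 and the clones. The mean was 11.8-fold lower in OSE, 12.8-fold lower in OSKT, 16.8-fold lower in OSK and 3.58-fold lower in D3 than in R1. Without background correction the log2 difference from R1 was -4.23 in OSE, -4.43 in OSKT and -5.22 in OSK, against -3.56, -3.68 and -4.07 with it. Ccl2 then had slightly larger gaps in OSKT (-4.56) and OSK (-5.27). OSE and OSKT clones were above background throughout (8 and 11 arrays), while 7 of 11 OSK clones were. The order of means was R1, D3, OSE, OSKT and OSK, and the ranges of neighbouring iPS sets overlapped. In a bulk sample, fewer cells making a chemokine and less of its RNA in each cell cannot be told apart.

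Cxcl5, the related neutrophil attractant, was measured in R1 alone. Its R1 values were 9.24, 8.92, 9.06 and 8.90, and no array of OSE, OSKT, OSK or D3 was above background. With the lowest detected signal of each array as the floor, it was at least 4.03-fold lower in OSE, 4.15-fold lower in OSKT, 4.16-fold lower in OSK and 4.14-fold lower in D3 than in R1. Cxcl5 thus entered the tests through the 4 R1 arrays only, and no order among the other groups can be given.

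Cxcl12, the Cxcr4 ligand, went against the reason the genes were picked, since it was higher in the iPS sets than in R1. It had 8.10, 8.75 and 9.16 (lowest, median, highest) in OSE, 7.34, 7.93 and 8.53 in OSKT, and 7.94, 8.46 and 8.99 in OSK. D3 had 7.08 and 7.18, and R1 had 7.54, 7.59, 7.64 and 7.58. All 36 arrays were above background, every OSE and OSK clone lay above every R1 array, and OSKT overlapped R1. The mean was 2.14-fold higher in OSE, 1.25-fold higher in OSKT and 1.87-fold higher in OSK than in R1, and 1.37-fold lower in D3. In descending order the means were OSE, OSK, OSKT, R1 and D3, with overlap between OSE and OSK, between OSK and OSKT, and between OSKT and R1.

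Ccl2, the monocyte attractant MCP-1, was lower in every other group than in R1 and varied widely among clones. It had 6.90, 8.34 and 8.86 (lowest, median, highest) in OSE, 6.21, 7.39 and 8.27 in OSKT, and 5.96, 6.68 and 8.36 in OSK. D3 had 7.06 and 7.26, and R1 had 9.96, 10.15, 10.39 and 10.21. No other array reached the R1 range, and D3 lay inside the range of all iPS sets. Ccl2 was above background on 7 of 8 OSE, 6 of 11 OSKT and 4 of 11 OSK arrays and on both D3 arrays. The mean was 3.86-fold lower in OSE, 8.29-fold lower in OSKT, 9.00-fold lower in OSK and 8.08-fold lower in D3 than in R1. These folds depend on the background correction, since the log2 differences from R1 were -3.05 in OSKT, -3.17 in OSK and -3.01 in D3 with it and -4.56 in OSKT, -5.27 in OSK and -3.89 in D3 without it. The order of means was R1, OSE, D3, OSKT and OSK, and the last 4 overlapped.

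Ccl7, the neighbouring monocyte attractant MCP-3, was above background on all 36 arrays. It had 10.37, 11.34 and 11.59 (lowest, median, highest) in OSE, 9.20, 10.69 and 11.59 in OSKT, and 8.65, 9.80 and 11.08 in OSK. D3 had 8.95 and 9.11, and R1 had 12.62, 12.70, 12.99 and 12.83. R1 stood above all other arrays, and D3 lay below all OSE and OSKT clones but inside the OSK range. The mean was 2.98-fold lower in OSE, 4.70-fold lower in OSKT, 7.06-fold lower in OSK and 13.5-fold lower in D3 than in R1. Set against D3, it was 4.54-fold higher in OSE, 2.88-fold higher in OSKT and 1.92-fold higher in OSK. The order was R1, OSE, OSKT, OSK and D3, and each neighbouring pair below R1 overlapped.

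Ccl5, the T cell attractant RANTES, was, like Cxcl5, measured in R1 alone. Its R1 values were 9.53, 9.30, 9.82 and 9.62, and no other array was above background. It was at least 5.85-fold lower in OSE, 6.03-fold lower in OSKT, 6.04-fold lower in OSK and 6.02-fold lower in D3 than in R1, and it passed the filter on dim probes through those 4 arrays only.

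**Figure D1:**
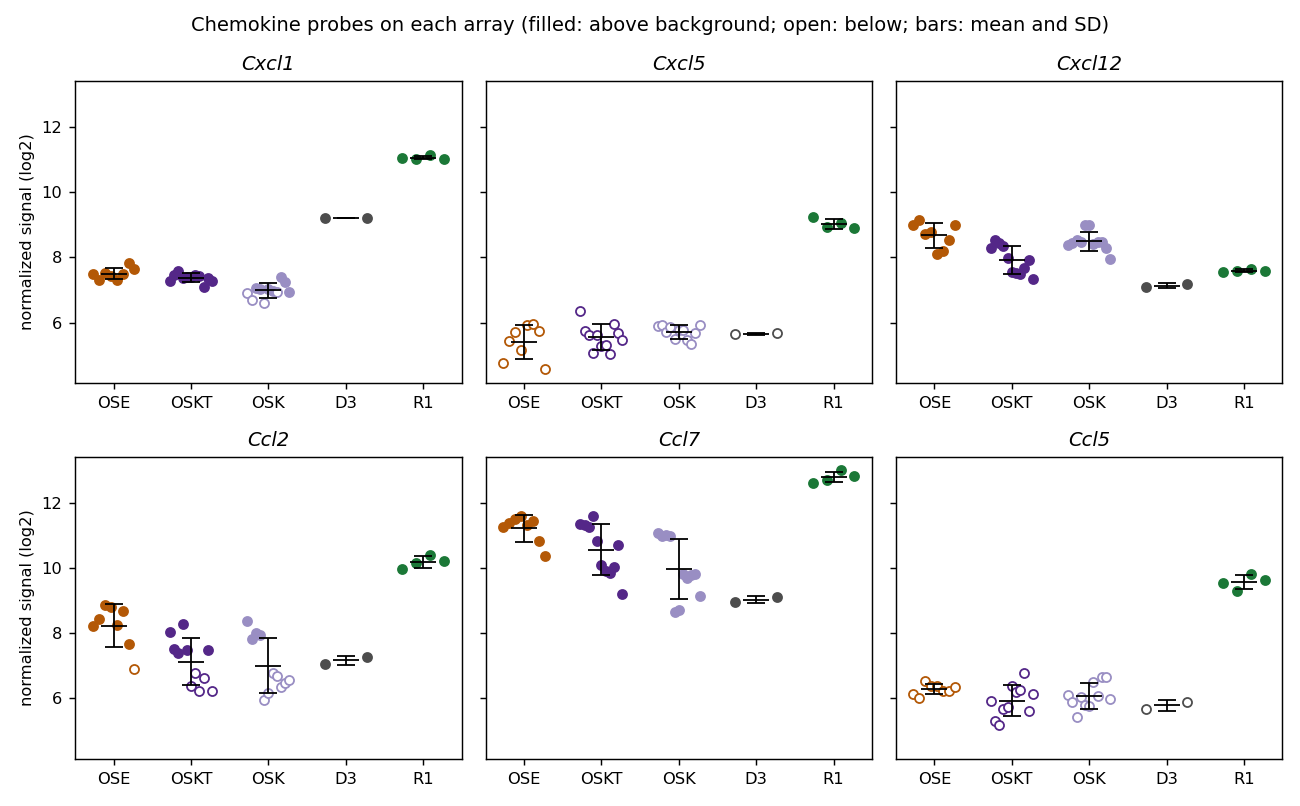
Normalized log2 signal (y axis) of the 6 chemokine probes on each array, by group (x axis). Points are arrays, filled where above background and open where below, and bars are the mean and SD. R1 stands above every other group for Cxcl1, Cxcl5, Ccl2, Ccl7 and Ccl5, while for Cxcl12 the OSE and OSK clones stand above R1.

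Of the 6 genes, 5 had a mean below R1 in each iPS set and all 6 had one in D3. Over all features, 49% had a mean below R1 in OSE, 50.2% in OSKT, 49.1% in OSK and 44% in D3. The genes were chosen on these comparisons, so nothing is read from the counts.

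Comparisons among the iPS sets did not enter the choice of genes and were tested with limma, at an adjusted p of 0.05 over all features. OSKT against OSK asks what goes with added Tbx3. Cxcl1 rose and Cxcl12 fell in OSKT, which makes 2 of the 6 genes called, beside 35.5% of all features in this comparison. Cxcl1 averaged 7.38 ± 0.13 in OSKT and 6.99 ± 0.22 in OSK (SD, n = 11 each), a log2 difference of 0.39 (SE 0.07, limma adjusted p = 1e-04), with 11 of 11 OSKT clones above the OSK mean. Cxcl12 averaged 7.91 ± 0.43 in OSKT and 8.49 ± 0.29 in OSK, a log2 difference of -0.57 (SE 0.14, limma adjusted p = 0.00186), with 10 of 11 OSKT clones below the OSK mean. Cxcl12 no longer passed when near-identical arrays were averaged (-0.49, limma adjusted p = 0.114), whereas Cxcl1 did (0.39, limma adjusted p = 0.0169). In the authors' scaled table the Cxcl1 difference was 0.83.

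Ccl7 and Ccl2 did not pass between OSKT and OSK. Ccl7 averaged 10.55 ± 0.78 in OSKT and 9.97 ± 0.93 in OSK, with a log2 difference of 0.59 (limma adjusted p = 0.113) and a 95% interval of 0 to 1.17. It passed when clone number 1 to 4 or higher was a term of the model (0.59, limma adjusted p = 0.00819) and without OSKT clone 11 (0.72, limma adjusted p = 0.0431). For Ccl2 the interval ran from -0.46 to 0.70 around 0.12 (limma adjusted p = 0.784). Cxcl5 and Ccl5 were below background in both sets.

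OSE against OSK sets Esrrb in place of Klf4. Cxcl1, Ccl2 and Ccl7 rose in OSE, 3 of the 6 genes, beside 45.8% of all features called. Ccl7 averaged 11.21 ± 0.41 in OSE (n = 8) and 9.97 ± 0.93 in OSK (SD, n = 11), 2.37-fold higher (log2 1.24, SE 0.31, limma adjusted p = 0.00142). Ccl2 averaged 8.23 ± 0.66 in OSE and 7.01 ± 0.86 in OSK, 2.33-fold higher (log2 1.22, SE 0.31, limma adjusted p = 0.00158). All 8 OSE clones exceeded the OSK mean for Ccl7 and 7 of 8 did for Ccl2, though the ranges overlapped. With Ccl2 below background on 7 of 11 OSK arrays, the size of its difference was 2.95 without background correction and 1.95 in the authors' scaled table. Cxcl1 was 1.43-fold higher (log2 0.51, SE 0.08, limma adjusted p = 2.53e-06), with a log2 difference of 1.00 without background correction. Cxcl12 had a difference of 0.19 with an interval of -0.12 to 0.51 (limma adjusted p = 0.321).

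OSE against OSKT called Cxcl12 and Ccl2, both higher in OSE, 2 of the 6 genes beside 60.1% of all features. Cxcl12 averaged 8.68 ± 0.39 in OSE (n = 8) and 7.91 ± 0.43 in OSKT (SD, n = 11), 1.70-fold higher (log2 0.77, SE 0.16, limma adjusted p = 6.56e-05), and 8 of 8 OSE clones exceeded the OSKT mean. Ccl2 averaged 8.23 ± 0.66 in OSE and 7.12 ± 0.72 in OSKT, 2.15-fold higher (log2 1.10, SE 0.31, limma adjusted p = 0.00273). The size for Ccl2 was 2.24 without background correction. With near-identical arrays averaged, Ccl2 did not pass (0.80, limma adjusted p = 0.105), while Cxcl12 did (0.74, limma adjusted p = 0.00795). Ccl7 had a difference of 0.66 (limma adjusted p = 0.0699) and an interval of 0.02 to 1.30. It passed when 1 of OSE clone 8 or OSKT clones 1 to 4 was left out (0.73 to 0.78). For Cxcl1 the interval was -0.04 to 0.28 around 0.12 (limma adjusted p = 0.184).

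**Figure D2:**
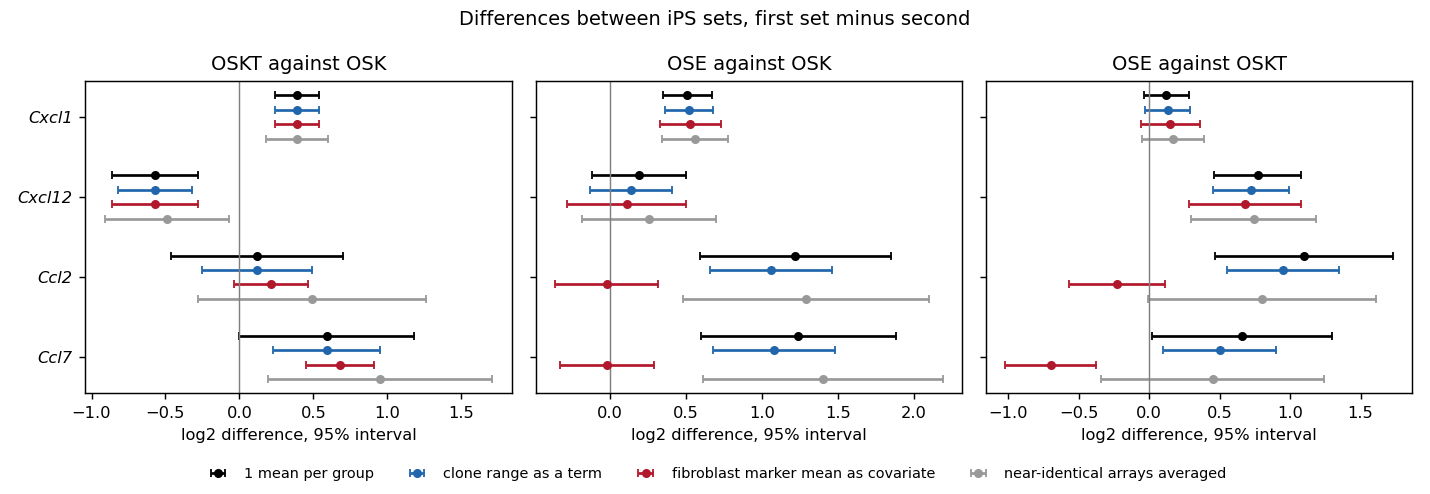
Log2 differences between iPS sets (x axis, first set minus second, with 95% intervals) for the 4 chemokines above background on some arrays of each of those sets, under the model with 1 mean per group and under alternatives. Cxcl1 and Cxcl12 keep their place under the fibroblast covariate, whereas the OSE differences of Ccl2 and Ccl7 do not.

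Fibroblast markers moved with Ccl2 and Ccl7. The mean log2 signal of 23 tested markers, such as Col1a1, Col6a1 and Col5a1, ran from 9.73 to 10.73 in OSE, 9.34 to 10.21 in OSKT and 9.19 to 10.29 in OSK, against 8.64 to 8.65 in D3 and 9.34 to 9.41 in R1. Their summed signal over 28 measured markers was 52459 to 102532 intensity units in OSE, 44008 to 79335 in OSKT, 34337 to 80783 in OSK, 24700 to 25294 in D3 and 39812 to 43436 in R1. Cdh11, Col5a2, Fap, Lum and Postn were below background in all groups, as were Col1a2 and Col3a1 in D3 and R1. Of the 23 markers, limma called 18 higher and 1 lower in OSE than in R1, 8 and 1 in OSKT, and 11 and 1 in OSK. The shares of all features called higher and lower were 28.7% and 29.9% in OSE, 26.4% and 27.9% in OSKT, and 25.8% and 28% in OSK. Col1a2 and Col3a1 passed the filter through iPS arrays only, so any higher calls of theirs against R1 are no test.

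With the marker mean as a covariate, the OSE against OSK difference was -0.02 for Ccl2 (limma adjusted p = 0.942) and -0.02 for Ccl7 (limma adjusted p = 0.921). For OSE against OSKT it was -0.23 for Ccl2 (limma adjusted p = 0.273) and -0.70 for Ccl7 (limma adjusted p = 0.000373). The OSKT against OSK difference of Ccl7 was 0.68 in that model (limma adjusted p = 1.43e-05). Cxcl1 in OSE against OSK was 0.53 (limma adjusted p = 5.26e-05), and Cxcl12 in OSE against OSKT was 0.68 (limma adjusted p = 0.0044). The R1 arrays, with marker means no higher than 9.41, had the highest Ccl2 and Ccl7 of all. Marker means themselves differed between the iPS sets (medians of 10.47 in OSE, 9.54 in OSKT and 9.68 in OSK). Set and marker level therefore cannot be fully told apart in this model, and the cause was not tested.

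**Figure D3:**
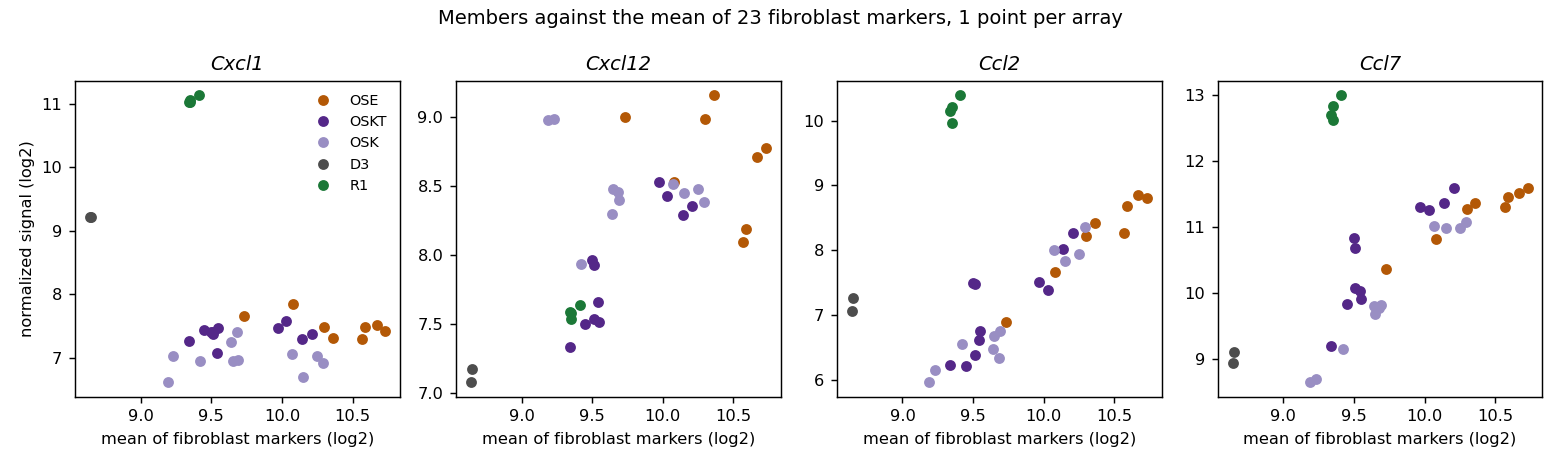
Normalized log2 signal of 4 chemokines (y axis) against the mean log2 signal of the fibroblast markers (x axis), 1 point per array. Among iPS clones, Ccl2 and Ccl7 are higher on arrays with higher marker means, and R1 lies apart with marker means of 9.34 to 9.41 and the highest signal of Cxcl1, Ccl2 and Ccl7.

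Within the OSKT and OSK sets, clones numbered 1 to 4 differed from the others, a split known from earlier results of these data. The split was thus taken from the arrays it is tested on. P-values across it, also those of the OSE ranges and the interaction below, are therefore descriptive. In OSKT clones 1 to 4 against 5 to 11, limma called 4 of the 6 genes beside 40.1% of all features, with Ccl2, Ccl7 and Cxcl12 higher and Ccl5 lower. Ccl7 averaged 11.38 in clones 1 to 4 and 10.08 in clones 5 to 11 (2.45-fold, limma adjusted p = 3.19e-05), with no overlap. Cxcl12 averaged 8.40 in clones 1 to 4 and 7.64 in clones 5 to 11 (1.70-fold, limma adjusted p = 0.000148), again without overlap. Ccl2 averaged 7.80 in clones 1 to 4 and 6.74 in clones 5 to 11 (2.08-fold, limma adjusted p = 0.00102). The log2 difference was 2.67 for Ccl2 without background correction (1.06 with it) and 1.49 for Cxcl12 in the authors' scaled table. The Ccl5 call compares values that were all below background and gives no fold.

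In OSK clones 1 to 4 against 5 to 11, limma called 2 of the 6 genes beside 32.5% of all features. Ccl7 had 11.08, 10.98, 11.01 and 10.99 in clones 1 to 4, against 8.65 to 9.82 in clones 5 to 11, and was 3.14-fold higher (limma adjusted p = 2.45e-06). Ccl2 had 8.36, 7.83, 8.01 and 7.94 in clones 1 to 4, all above background, while 0 of 7 later clones were, and was at least 2.10-fold higher (limma adjusted p = 1e-05). Its fitted log2 difference was 1.62, against 4.36 without background correction and 2.95 in the authors' scaled table. Cxcl12 had a difference of -0.05 with an interval of -0.36 to 0.26. Fibroblast marker means were 10.07 to 10.29 in OSK clones 1 to 4 against 9.19 to 9.69 in clones 5 to 11, and 9.97 to 10.21 against 9.34 to 9.55 in OSKT. The means of the pluripotent cell markers were 10.57 to 10.74 in OSK clones 1 to 4 against 10.65 to 10.97 in clones 5 to 11, and 10.42 to 10.64 against 10.88 to 11.13 in OSKT. The part of either marker list in the clone differences was not tested, since the covariate above was used only between iPS sets. With near-identical arrays averaged, none of these calls passed, with limma adjusted p of 0.213 and 0.178 for Ccl2 and Ccl7 in OSK and 0.177, 0.0527 and 0.0927 for Ccl2, Ccl7 and Cxcl12 in OSKT.

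In OSE, clones 1 to 4 against 5 to 8 gave 0 calls by limma among the 6 genes beside 10.6% of all features, and 2 genes at an unadjusted p of 0.05. The largest differences were 0.70 for Ccl2 (limma adjusted p = 0.107), 0.46 for Cxcl12 (limma adjusted p = 0.0835) and 0.45 for Ccl7 (limma adjusted p = 0.28). Without OSE clone 6 Ccl2 passed (0.97, limma adjusted p = 0.0176), and without OSE clone 8 Cxcl12 did (0.64, limma adjusted p = 0.0178).

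The OSKT against OSK difference was then compared between the clone ranges. The interaction called 1 of the 6 genes, Cxcl12, beside 14.8% of all features (0.81, SE 0.22, limma adjusted p = 0.00952). Within clones 1 to 4, Cxcl12 averaged 8.40 in OSKT and 8.46 in OSK, and Cxcl1 was the 1 gene called, beside 15.6% of all features (log2 0.50, limma adjusted p = 0.00523). Within clones 5 to 11, Cxcl12 averaged 7.64 in OSKT and 8.51 in OSK, 1.83-fold lower in OSKT (log2 -0.87, limma adjusted p = 2.02e-06). There, Cxcl1 (log2 0.32, limma adjusted p = 0.00401) and Ccl7 (log2 0.72, limma adjusted p = 0.00355) were also called, which makes 3 of the 6 genes beside 42% of all features. With near-identical arrays averaged, the Cxcl12 interaction was 0.65 and did not pass (limma adjusted p = 0.748), and in the authors' scaled table it was 1.56.

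**Figure D4:**
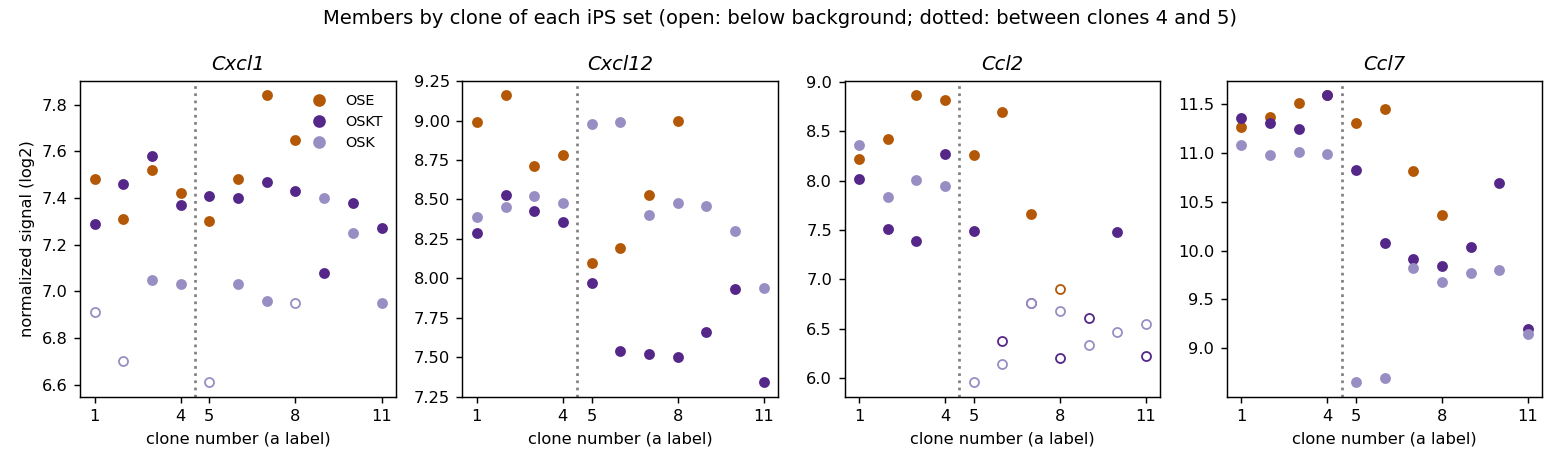
Normalized log2 signal (y axis) of 4 chemokines in each clone of the iPS sets, by clone number (x axis, a label without order). Filled points are above background, open points below, and the dotted line separates clones 1 to 4 from the rest. Ccl2 and Ccl7 are higher in clones 1 to 4 of OSKT and OSK, and Cxcl12 in clones 1 to 4 of OSKT.

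Ccl2 and Ccl7 varied together. Their Pearson correlation was 0.927 over the 36 arrays, 0.988 within OSE, 0.933 within OSKT and 0.949 within OSK, given as descriptions of arrays that share groups and near-identical clones. Within OSKT, Cxcl12 correlated with Ccl7 at 0.963, against -0.216 in OSE and -0.334 in OSK. Cxcl1 and Ccl7 had 0.549 over the 36 arrays and -0.667, 0.331 and 0.044 within OSE, OSKT and OSK.

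The features most like each member over the 36 arrays were found by Pearson correlation. For Cxcl1 they were Napsa (0.966), Zfp951 (0.96) and Myo1f (0.958). For Cxcl5 they were S100a8 (0.935), Napsa (0.925) and Lcn2 (0.917), and for Ccl5 Lcn2 (0.916), Napsa (0.9) and Ifit3 (0.895). Napsa averaged 6.34 in OSE, 6.30 in OSKT, 6.26 in OSK, 7.42 in D3 and 9.79 in R1, and was below background on all iPS arrays. For Ccl2 they were Thbd (0.907), Samd9l (0.882) and Otulin (0.876), and for Ccl7 Vcam1 (0.924), Irgm1 (0.909) and B2m (0.89). Cxcl12 was most like Nlgn2 (0.894), Chst1 (0.868) and Dpysl2 (0.86), genes that were lower in the ES lines than in the iPS sets. For Cxcl1, Cxcl5 and Ccl5, R1 stood far from the other arrays, which these correlations share.

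Of 31 other chemokines measured, 8 passed the filter. Against R1, 4 of these were higher and 1 lower in OSE, 5 higher and 2 lower in OSKT, and 5 higher and 2 lower in OSK. Over all features, 28.7% were called higher and 29.9% lower in OSE, 26.4% and 27.9% in OSKT, and 25.8% and 28% in OSK. With near-identical arrays averaged, 3 were higher and 1 lower in OSE, 0 and 1 in OSKT, and 1 and 1 in OSK. The median log2 difference of the list was 0.44 in OSE, 0.52 in OSKT and 0.59 in OSK, beside 0.01, 0 and 0.01 over all features.

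Ppbp, a platelet chemokine between Cxcl5 and Cxcl1, was lower, with a mean of 7.32 in OSE, 7.78 in OSKT and 7.47 in OSK against 9.49 in R1 (limma adjusted p of 2.62e-07 for OSE, 7.81e-06 for OSKT and 4.5e-07 for OSK). Its neighbours Pf4, Cxcl3 and Cxcl15 were below background on all arrays. Cxcl14, a chemokine of epithelial tissues, averaged 7.69 in OSE, 7.21 in OSKT and 7.05 in OSK and was below background in R1. It was at least 1.72-fold higher in OSE, 1.23-fold higher in OSKT and 1.10-fold higher in OSK. Cxcl14 passed the filter through iPS arrays only, where it is high, so its higher calls are no test. The same holds for the OSKT and OSK calls of Ccl21b, above background on 5 OSKT, 4 OSK, 0 OSE and 0 R1 arrays. The counts of higher chemokines above include the calls of both genes. Ccl27a, a skin T cell attractant, was 1.51-fold higher in OSE, 1.44-fold higher in OSKT and 1.79-fold higher in OSK, and Ccl25, which attracts T cells to thymus and gut, 1.45-fold higher in OSE, 1.83-fold higher in OSKT and 1.69-fold higher in OSK.

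**Figure D5:**
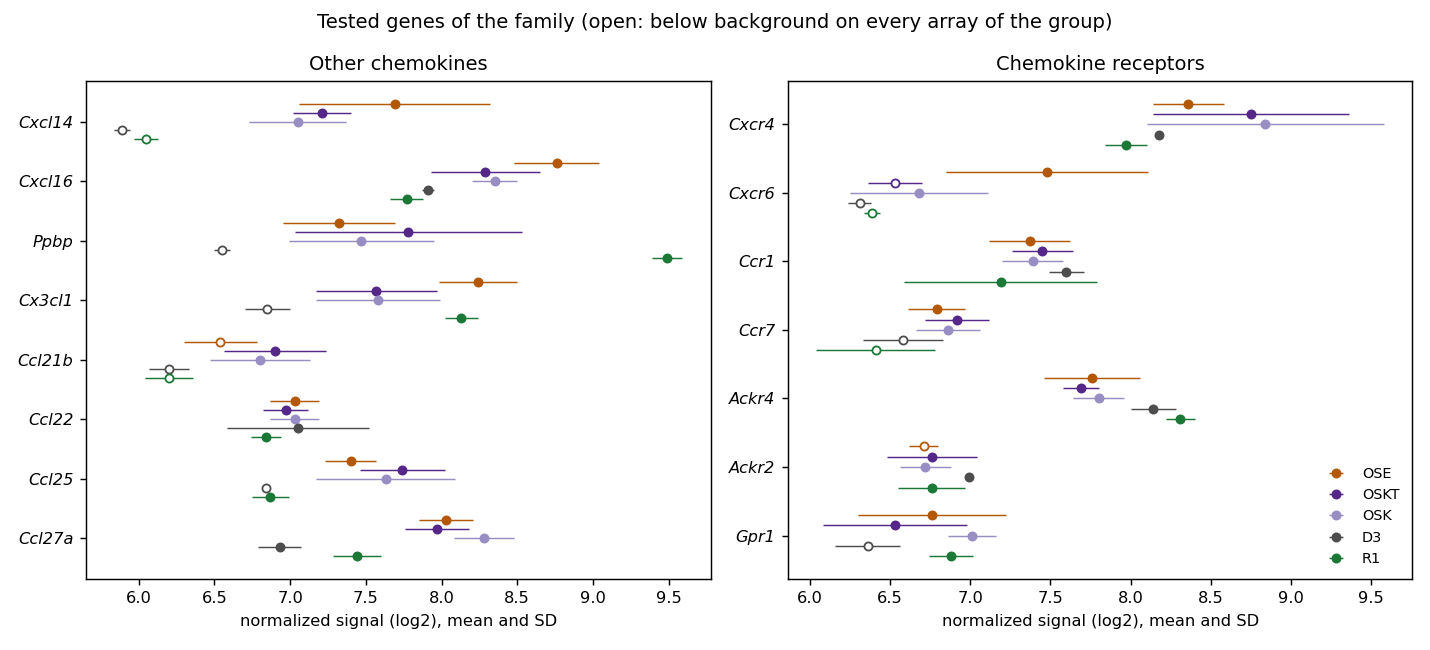
Mean and SD of the normalized log2 signal (x axis) of the other chemokines and the chemokine receptors that passed the filter, by group. Open points mark genes below background on every array of the group. Ppbp is highest in R1, and Cxcl14 is below background in D3 and R1.

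Among the receptors, 7 of 23 measured passed the filter, with 2 higher and 1 lower than R1 in each iPS set (median log2 difference 0.18 in OSE, 0.14 in OSKT and 0.20 in OSK). Beside this, 28.7% of all features were called higher and 29.9% lower in OSE, 26.4% and 27.9% in OSKT, and 25.8% and 28% in OSK. With near-identical arrays averaged, 0 receptors were higher in any set. Cxcr2 and Ccr2, the receptors of Cxcl1, Cxcl5, Ccl2 and Ccl7, were below background on all 36 arrays, as were Cxcr3, Ccr3 and Ackr3. Cxcr4, the receptor of Cxcl12, was above background on all 36, with means of 8.36 in OSE, 8.75 in OSKT and 8.84 in OSK against 7.97 in R1 (limma adjusted p of 0.306 for OSE, 0.0319 for OSKT and 0.0162 for OSK). Ackr4, a scavenger of CC chemokines, was 1.47-fold lower in OSE, 1.54-fold lower in OSKT and 1.43-fold lower in OSK. Ccr7 stood above background on 1 OSE, 5 OSKT, 2 OSK and 0 R1 arrays. Cxcr6 averaged 7.48 in OSE against 6.39 in R1, where it was below background. Ccr7 and Cxcr6 thus passed the filter without any R1 array, so any higher calls of theirs in the counts above are no test.

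Of 39 measured genes of NF-kB and inflammatory signalling, 24 passed the filter. Against R1, 6 were higher and 7 lower in OSE, 3 and 9 in OSKT, and 5 and 9 in OSK, with median log2 differences of -0.06 in OSE, -0.18 in OSKT and -0.02 in OSK. Of all features, 28.7% were called higher and 29.9% lower in OSE, 26.4% and 27.9% in OSKT, and 25.8% and 28% in OSK. With near-identical arrays averaged, the list had 2 higher and 2 lower in OSE, 1 and 0 in OSKT, and 1 and 2 in OSK. Icam1, an adhesion molecule induced by NF-kB, was 3.94-fold lower in OSE, 1.56-fold lower in OSKT and 2.12-fold lower in OSK. Tlr2, a receptor for bacterial lipoproteins, was 2.60-fold lower in OSE, 1.37-fold lower in OSKT and 1.30-fold lower in OSK. Map3k7, the kinase TAK1 upstream of NF-kB, was 1.73-fold higher in OSE, 1.38-fold higher in OSKT and 1.52-fold higher in OSK. Nfkb2, an NF-kB subunit, was 2.19-fold higher in OSE and 1.57-fold higher in OSK, while in OSKT the log2 difference was -0.21 (limma adjusted p = 0.16).

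Of 16 measured interferon response genes, 11 passed the filter, with 2 higher and 6 lower than R1 in each iPS set. Their median log2 difference was -0.45 in OSE, -0.35 in OSKT and -0.62 in OSK. All features had 28.7% called higher and 29.9% lower in OSE, 26.4% and 27.9% in OSKT, and 25.8% and 28% in OSK. Requiring 18 arrays above background left 3 lower in each set. Ifit3, an antiviral protein induced by interferon, averaged 6.83 in OSE, 6.40 in OSKT and 6.60 in OSK against 8.94 in R1. It was above background on 1 OSE, 0 OSKT, 1 OSK and 4 R1 arrays. Oasl1 was measured in R1 alone, at least 1.19-fold lower in OSE, 1.23-fold lower in OSKT and 1.23-fold lower in OSK. Ifit3 and Oasl1 thus passed the filter on dim probes through R1, where they are high, so their lower calls are no test. Ddx58, the RNA sensor RIG-I, was 2.19-fold lower in OSE, 1.98-fold lower in OSKT and 2.08-fold lower in OSK. Irf1, an interferon-induced transcription factor, was 1.67-fold higher in OSE, 2.03-fold higher in OSKT and 1.48-fold higher in OSK.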

How the data were processed

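RNA of 36 samples was read on a 1-colour Illumina bead array with BeadStudio, per the submitters' processing notes. The authors deposited intensity values that were background-subtracted but not scaled between arrays (25.4% to 29.6% of measured probes below 0), and a scaled table used as an alternative. The array's genome build is not given in the sources used here.

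Of 24613 deposited probes, 5893 (23.9%) were treated as placeholders and were left out. Signals were corrected with normexp (offset 16), quantile-normalized and taken as log2 in limma 3.58.1 (R 4.3.3). A signal counted as above background beyond the 99th percentile of a normal curve fitted to the negative signals of its array. Filtering required this on 4 or more arrays (10572 probes), and 1 probe per gene, that of the highest mean, was used (10533 features, 9235 with a symbol). A limma model of group means, fitted to all 36 arrays together with an intensity trend, gave 2-sided p-values adjusted by Benjamini-Hochberg over all features. The script was tested on simulated data.

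Members and gene lists were chosen with earlier results of these data known. The genes named were the 6 members, up to 4 per list by p against R1, and the 3 features most correlated with each member. Markers below background, receptors of the members, neighbouring genes and examples of markers were named in addition, chosen after their values were seen. Same-numbered clones and replicates deviated together in some pairs (47 pairs, r of -0.26 to 0.63, 19 over 0.1). The median r was 0.05, against -0.01 for samples with different numbers. The main model did not take numbers as pairs, and a replicate block was run as an alternative. Folds against a group below background are bounds against each array's lowest signal above background.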

Additional observations from a re-analysis of the deposited data

Results flagged for a closer look

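The OSKT against OSK difference of Cxcl12 differed between the clone ranges by 0.81 on the log2 scale (SE 0.22, limma adjusted p = 0.00952), with -0.06 in clones 1 to 4 and -0.87 in clones 5 to 11. Over the alternatives the value ran from 0.65 to 1.56, and it did not pass with near-identical arrays averaged (limma adjusted p = 0.748). The clone ranges came from earlier results of these data, so these p-values are descriptive. Of 12 sets of values checked for a sample far from the others (the 6 genes in OSE and in R1), 0 had one.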

How the results depend on the processing

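Members called between iPS sets or clone ranges were recounted under each alternative. Averaging near-identical arrays, which leaves fewer samples, gave 1 member (2 without averaging) for OSKT against OSK, 1 (2) for OSE against OSKT, 0 (2) for the OSK clone ranges, 0 (4) for the OSKT ranges and 0 (1) for the interaction. It gave 13, 10 and 11 listed genes called against R1 in OSE, OSKT and OSK, where 29, 30 and 32 were called without it. The numbers of all features called then were 1362 (3741) for OSKT against OSK, 3031 (4826) for OSE against OSK, 33 (3428) and 1529 (4221) for the OSK and OSKT ranges, 133 (1118) for the OSE ranges, 4 (1563) for the interaction, and 2921, 2454 and 2391 (6179, 5724 and 5664) against R1. OSE against OSKT gave 4 members with the replicate block and 4 with clone range as a term, since Ccl5 (below background) and Ccl7 passed. The replicate block also let Ccl7 pass for OSKT against OSK (0.59, limma adjusted p = 0.0111), and 8 of 36 arrays correlated best with their own number. The OSE ranges gave 1 member under median scaling and 1 under array weights. Requiring 18 arrays above background left 9 of 15 differences below R1, because Cxcl5 and Ccl5 dropped out. Signs turned for OSE against OSK with the fibroblast covariate (Ccl2 -0.02, Ccl7 -0.02), for OSE against OSKT with it (Ccl2 -0.23, Ccl7 -0.70), for Ccl2 in OSKT against OSK under array weights (-0.01), for Cxcl1 in OSE against OSKT in the authors' scaled table (-0.01), for Cxcl1 in the OSE ranges under array weights (0.02), and for Cxcl12 in the OSK ranges under array weights (0.04), averaging (0.02) and without OSK replicate 5 or 6 (0.03, with -0.14 to 0.03 over all arrays left out in turn). The cause was not tested. Leaving out 1 array gave 0 to 1 members for the OSE ranges, 2 to 3 for OSE against OSKT and OSKT against OSK, 3 for OSE against OSK, and 26 to 33, 26 to 31 and 27 to 32 listed genes. Median scaling moved the median of all features by -0.1 for OSKT and -0.12 for OSK against R1, 0.15 for the OSKT ranges and 0.21 for the interaction. It split calls (higher, lower) into 2027 and 3701 for OSKT against R1 (otherwise 2785 and 2939), 1777 and 3969 for OSK against R1 (2720 and 2944), 2199 and 1037 for OSKT against OSK (2058 and 1683), 2989 and 1725 for OSE against OSK (2442 and 2384), 3968 and 843 for the OSKT ranges (2040 and 2181), 443 and 368 for the OSE ranges (444 and 674) and 3212 and 225 for the interaction (900 and 663).

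The bead arrays give 1 measured probe per member, Cxcl5 and Ccl5 can be read in R1 alone, and Ccl2 is near background in many OSKT and OSK clones. R1 and D3 each form 1 near-identical cluster.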
